A study of Mus musculus with 6 samples.

Results

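The genes described here encode 40 subunits and partners of the chromatin machinery: 15 of the BAF complexes, 13 of NuRD, 8 of the Polycomb complexes and 4 that write or remove DNA methylation. They were chosen by name, out of 21887 protein-coding genes, with earlier results of these data known. A peak belonged to a gene when its midpoint lay in the gene body or, between genes, when that gene was the nearest one within 100 kb. By this rule the 40 genes held 139 of the 36095 assigned peaks of the WT list and 137 of the 34357 of the KO list. The data are ATAC-seq, in which a transposase cuts open DNA and tags it, from CD4+YFP+ cells sorted as regulatory T cells (Treg cells) from spleen and draining lymph nodes of C57BL/6 mice. The WT mice were Bcl11b w/w and the KO mice Bcl11b f/f, and both groups carried Foxp3-IRES-YFP-Cre, so Cre recombinase and YFP were made in cells that express Foxp3. The age of the mice and the deleted part of Bcl11b were not stated in the labels. Each group had 3 samples of 100000 lysed cells, represented by 1 peak list, so values per sample cannot be given and differences between the lists could not be held against replicates. A shared peak overlapped a peak of the other list by at least 1 bp, and all other peaks are called WT-only or KO-only. Intervals given with shares are exact 95% Clopper-Pearson intervals for counting error alone, and peaks close together may depend on each other.

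BAF complexes use ATP to slide or evict nucleosomes and usually open chromatin. NuRD joins a remodelling ATPase to histone deacetylases, while Polycomb repressive complex 2 methylates histone H3 at lysine 27 and Polycomb repressive complex 1 ubiquitinates histone H2A. The zinc-finger protein Bcl11b has been found in association with NuRD and with BAF complexes, and the Polycomb methyltransferase Ezh2 and the methylcytosine dioxygenases Tet2 and Tet3 have known roles in Treg cells. The peaks report whether DNA at these genes was open, not whether the genes were transcribed.

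The 250 bases before a RefSeq start site (assembly GRCm38.p6, the coordinates of mm10) are shown for Tet2 and Jarid2, the members with a genotype-specific peak in a promoter window, and for the member of the BAF, NuRD and Polycomb groups whose promoter peak stood earliest in the WT list. Capitals mark the bases that a peak of either list covered. At Tet2 they mark a WT-only peak and at Jarid2 a KO-only peak, whereas those of Brd9, Hdac2 and Eed belong to shared peaks.
Tet2 (chr3:133544391-133544640, minus strand): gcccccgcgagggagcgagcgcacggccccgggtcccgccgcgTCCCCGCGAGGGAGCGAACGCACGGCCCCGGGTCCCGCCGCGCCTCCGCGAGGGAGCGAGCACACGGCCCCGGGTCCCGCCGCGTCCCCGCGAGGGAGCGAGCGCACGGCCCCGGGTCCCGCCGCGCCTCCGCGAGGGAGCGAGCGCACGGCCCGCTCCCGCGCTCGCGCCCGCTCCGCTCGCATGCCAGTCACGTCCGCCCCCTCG
Jarid2 (chr13:44730524-44730773, plus strand): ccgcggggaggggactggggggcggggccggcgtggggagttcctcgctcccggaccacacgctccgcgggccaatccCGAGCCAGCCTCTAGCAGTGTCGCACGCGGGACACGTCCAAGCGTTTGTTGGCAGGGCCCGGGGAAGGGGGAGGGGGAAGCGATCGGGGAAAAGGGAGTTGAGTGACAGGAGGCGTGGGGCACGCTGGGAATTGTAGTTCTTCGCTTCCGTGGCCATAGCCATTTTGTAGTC
Brd9 (chr13:73937561-73937810, plus strand): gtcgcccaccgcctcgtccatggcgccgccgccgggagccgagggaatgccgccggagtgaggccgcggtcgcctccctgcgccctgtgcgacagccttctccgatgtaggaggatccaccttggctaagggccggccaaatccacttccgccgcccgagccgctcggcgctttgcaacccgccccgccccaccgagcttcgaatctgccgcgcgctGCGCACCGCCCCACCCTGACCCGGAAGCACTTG
Hdac2 (chr10:36974294-36974543, plus strand): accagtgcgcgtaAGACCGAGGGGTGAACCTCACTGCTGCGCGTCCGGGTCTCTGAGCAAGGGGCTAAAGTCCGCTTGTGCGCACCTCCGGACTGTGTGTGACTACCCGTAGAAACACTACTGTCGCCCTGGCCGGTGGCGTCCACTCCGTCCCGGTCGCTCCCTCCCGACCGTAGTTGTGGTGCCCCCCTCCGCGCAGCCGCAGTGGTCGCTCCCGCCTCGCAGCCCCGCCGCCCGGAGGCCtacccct
Eed (chr7:89980977-89981226, minus strand): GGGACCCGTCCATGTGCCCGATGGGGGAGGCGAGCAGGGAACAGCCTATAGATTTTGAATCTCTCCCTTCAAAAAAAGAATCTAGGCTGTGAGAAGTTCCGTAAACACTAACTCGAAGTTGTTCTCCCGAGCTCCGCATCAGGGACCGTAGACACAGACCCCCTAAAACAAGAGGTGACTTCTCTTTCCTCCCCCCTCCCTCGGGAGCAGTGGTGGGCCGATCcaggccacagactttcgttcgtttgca
The Tet2 window repeats itself: shifted by 42 bases, 67.8% of its bases matched, against 46.8% at best shift for the next member window and a median of 33.8% over 21263 windows of protein-coding genes, of which 10 reached the Tet2 value. Whether this repeat had a part in where the peaks were called was not tested.

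Most peaks at these genes had a counterpart in the other list. In the WT list 100 of 139 were shared (71.9%, interval 63.7 to 79.2%), and in the KO list 101 of 137 (73.7%, 65.5 to 80.9%). There remained 39 WT-only and 36 KO-only peaks, where over all genes 28.4% of assigned WT peaks were WT-only and 24.8% of assigned KO peaks were KO-only. The KO-only part of the genotype-specific peaks was 48.0% (36.3 to 59.8%), and 45.4% (44.7 to 46.1%) over all genes. Among the earliest 50% of rows there were 11 KO-only against 5 WT-only peaks, a KO-only part of 68.8% (41.3 to 89.0%), and over all genes that part was 54.6% (2280 of 4177). More WT-only than KO-only peaks lay at 12 of the 39 members with a peak, and more KO-only peaks at 9. Over all genes with a peak, 26.7% had more WT-only and 20.2% more KO-only peaks. The numbers were even at 18 members, of which 16 had no genotype-specific peak, where 42.8% of all genes with a peak had none. The median difference per gene was 0, as over all genes with a peak. A surplus of at least 2 WT-only peaks was found at 3 members (Arid1a, Hdac2 and Jarid2), where 7.92% of all genes with a peak had one, and a surplus of at least 2 KO-only peaks at 3 others (Mbd2, Bcl7a and Ezh1), where 5.2% had one. The members' counts lie near this background in both directions.

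**Figure D1:**
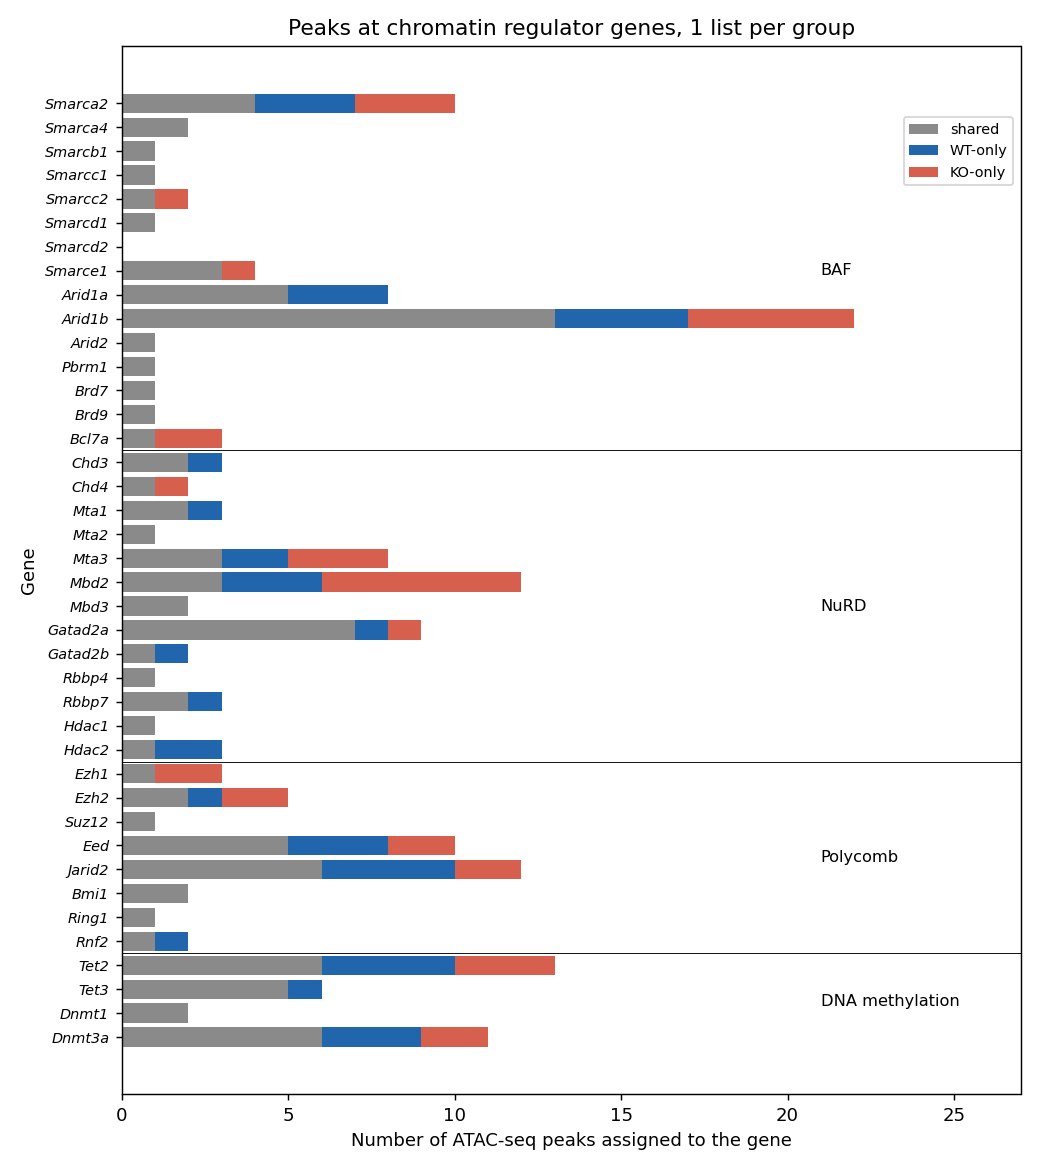
Number of ATAC-seq peaks assigned to each of the 40 genes, by group, as stacked bars of shared (the larger count of the 2 lists), WT-only and KO-only peaks. Arid1b stands out with 13 peaks in both lists beside 9 in a single list, and Smarcd2 has no bar.

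A feature of nearly all these genes was an open gene end. A peak with its midpoint within 1 kb of a gene end or of a listed start site was present in both lists at 39 of 40 members, where 51.2% of all protein-coding genes had one, and 0 members had one in 1 list alone (2.21% of all genes in the WT list alone and 1.95% in the KO list alone). At Tet2 and Mta3 the gene-end peaks of the lists lay side by side and did not overlap. All genes include 7374 with no assigned peak in either list. Of 45 other genes of the same pathways, 39 also had a gene-end peak in both lists. The exception among the members was Chd3, whose shared peaks lay inside the gene (WT list, chr11:69366555-69366773) and 2.44 kb beyond its lower end. The BAF subunit gene Smarcd2 had no assigned peak, because the shared peak at its upper end (WT list, chr11:106272963-106273181) was assigned to the neighbouring gene Tcam1. At Pbrm1 the WT peak over the start was assigned to the neighbour Gnl3 and the KO peak that it overlaps to Pbrm1.

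RefSeq promoter windows, from 250 bases before to 50 after a start, were listed for 33 members. Smarce1, Arid2, Bcl7a, Chd3, Mta3, Mbd2 and Hdac1 had none. A peak of both lists touched 31 of the 43 windows (72.1%), against 37.7% of 21263 windows of all protein-coding genes. The member windows had a median G+C content of 68.3% and 30 CpG dinucleotides, the windows of all genes 56.3% and 13, and windows of all genes with a peak in both lists 62.0% and 23. The windows of Dnmt3a (82.3% G+C at the most upstream start) and Arid1b (75.3%) held no peak in either list, and their nearest shared peaks were centred in the WT list at -722 and -689 bp from the most upstream start, a minus sign marking positions before it. Around the most upstream listed start of each gene, shared WT peaks of members were centred before the start in 21 of 31 cases (32.3% lay after it, 16.7 to 51.4%), while over all genes 56.0% (54.9 to 57.1%) lay after it. The start used is the most upstream in the table and need not be the one used in Treg cells.

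**Figure D2:**
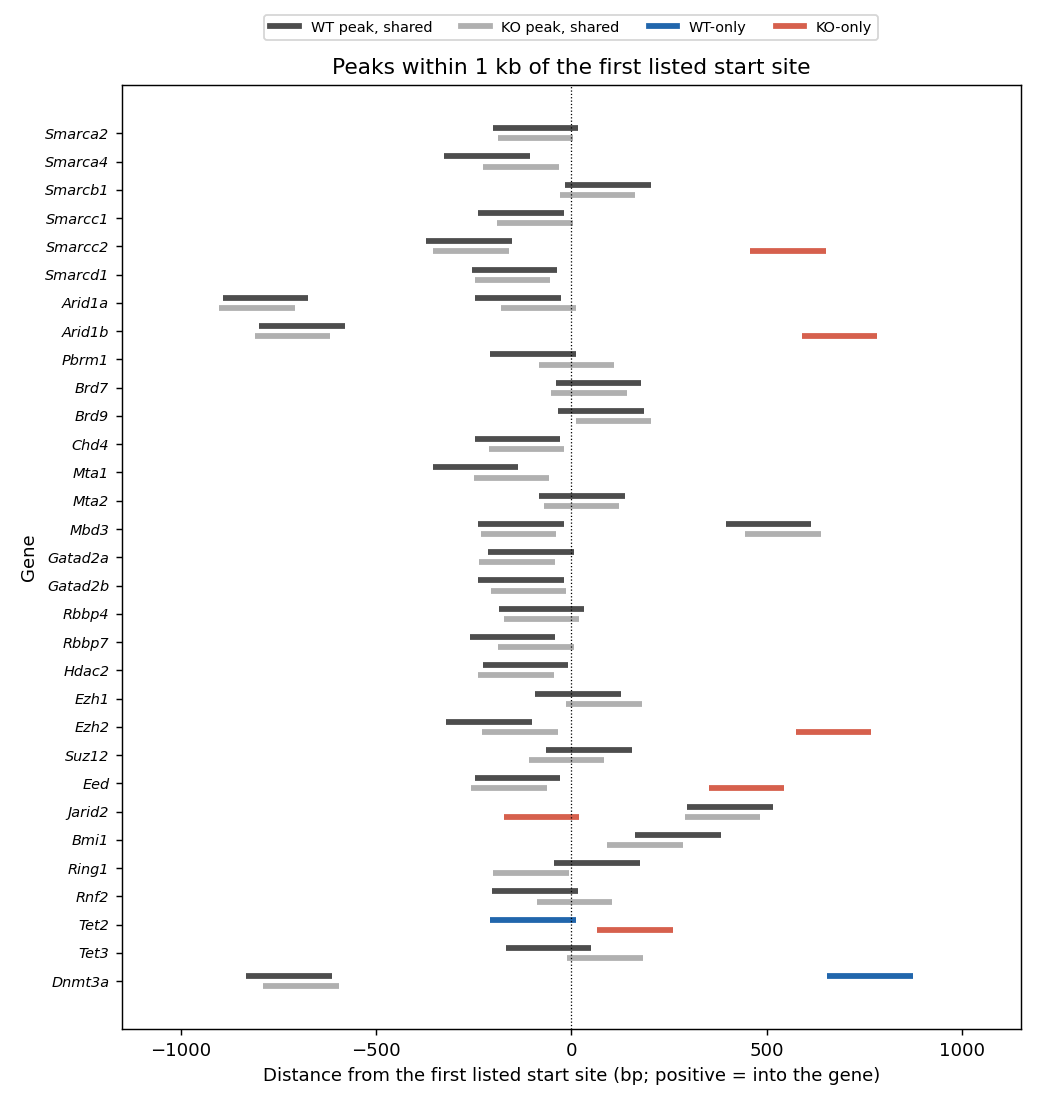
Peaks within 1 kb of the most upstream listed start of 31 members, drawn to scale as distance from the start in bp, with the WT list above the KO list in each row. Shared pairs lie mostly just before the start, and KO-only peaks of Smarcc2, Arid1b, Ezh2 and Eed lie 449 to 687 bp into the gene.

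Gene ends held 9 KO-only and 3 WT-only peaks. Of the KO-only peaks, 9 of 36 (25%, 12.1 to 42.2%) lay at gene ends, and of the WT-only peaks 3 of 39 (7.69%, 1.62 to 20.9%). Over all genes the shares were 21.2% and 16.7%. Ezh2, encoding the main H3K27 methyltransferase of dividing cells, had a KO-only peak centred 671 bp into the gene (chr6:47594263-47594455). Its gap to the shared promoter peak of the WT list was 675 bp. Eed, the subunit that reads H3K27 methylation, had one 449 bp into the gene (chr7:89980431-89980623) at 12.9% of the KO list, and the WT list had its nearest peak 380 bp away, at the promoter printed above. Smarcc2, a core scaffold of BAF, and Arid1b, a subunit that defines the canonical BAF complex, had KO-only peaks 555 and 687 bp after the start. At 6 KO-only peaks near the most upstream start, 5 lay after it (83.3%, 35.9 to 99.6%), against 64.4% over all genes. At Jarid2, a PRC2 cofactor that helps to target the complex, the KO-only peak (chr13:44730602-44730794) covered the most upstream start, and a shared peak at 11.9% of the WT list and 14.5% of the KO list touched the window of the other listed start. The gap from the KO-only peak to that WT peak was 276 bp.

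Some genotype-specific peaks were near pairs rather than isolated peaks. At the Tet2 start, the WT-only peak (chr3:133544379-133544597) was centred 98 bp before it and the KO-only peak (chr3:133544131-133544323) 163 bp after it, with 55 bp between them. They stood at 8.01% of the WT list and 14.8% of the KO list, early for genotype-specific peaks, whose median place over all genes was 76.1% and 71.3%. A further Tet2 pair 38 kb beyond the gene was 338 bp apart. Mta3, a scaffold of NuRD, had such a pair outside its lower end with a gap of 59 bp, and Mbd2, the NuRD subunit that binds methylated DNA, had pairs with gaps of 99 and 28 bp. Of the members' WT-only peaks, 5 of 39 (12.8%) had a KO peak within 500 bp, and of their KO-only peaks 9 of 36 (25%) had a WT peak that near. The shares over all genes were 20.7% and 28.8%. The usual peak width was 219 bp in the WT list and 193 bp in the KO list, so nearly all peaks of the KO list were narrower.

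The BAF genes had 10 WT-only, 12 KO-only and 35 shared WT peaks over 15 members. The exchangeable ATPases differed in peak number: Smarca4 (Brg1) had 2 peaks in each list, all shared, and none in its body of 88.1 kb, whereas Smarca2 (Brm), with a body of 173 kb, had 7 in each list, of which 4 were shared. The next gene lay at least 63.3 kb from the Smarca2 peaks and at most 20.1 kb from those of Smarca4. The part of gene length and spacing in this contrast was not tested. At Smarca2 the 3 KO-only peaks lay in the gene body and the 3 WT-only peaks beyond the gene, so inside the gene alone there was a surplus of 3 KO-only peaks. The WT-only peaks there stood between 90.4% and 97.3% of the WT list, and a KO-only peak 2204 bp after the start stood at 26.6% of the KO list. Arid1a and Arid1b, the mutually exclusive subunits of canonical BAF, differed as well. Arid1a had 3 WT-only and 0 KO-only peaks, all inside the gene (chr4:133688458-133688676, chr4:133711718-133711936 and chr4:133751627-133751845), at 94.8%, 78.0% and 47.0% of the WT list, beside 5 shared peaks. Arid1b, the longest member with 353 kb, had 13 shared peaks beside 4 that were WT-only and 5 that were KO-only, and all its KO-only peaks lay on the start side of all its WT-only peaks. Per 100 kb of gene body, Arid1a had 7.72 WT and 3.86 KO peaks and Arid1b 4.24 and 4.53.

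The other BAF genes had few peaks. The core subunit genes Smarcb1, Smarcc1 and Smarcd1 each had 1 shared peak and no other, all at the gene end. So did Brd7 of the PBAF form and Brd9 of the non-canonical form. The PBAF gene Arid2 also had 1 assigned shared peak, inside the gene. A further shared peak 830 bp from the end of Arid2 (WT list, chr15:96286583-96286801) was assigned to the neighbouring gene Gm38469. Bcl7a, a small accessory subunit, had 2 KO-only peaks 3.66 and 8.03 kb beyond its upper end, at 93.3% and 84.6% of the KO list, and neither was in the first 50% of it. Smarce1 had 1 KO-only peak 8.72 kb from the gene beside 3 shared ones.

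At NuRD genes the numbers were 12 WT-only, 11 KO-only and 27 shared WT peaks over 13 members. Mbd2 had the largest KO-only surplus of the 40 genes, with 6 KO-only, 3 WT-only and 3 shared peaks. Of the KO-only peaks, 1 lay in the gene and 5 between 3.08 and 23.8 kb beyond its upper end, where the next nearest protein-coding gene was 97.3 to 118 kb away. The KO-only peaks at chr18:70632116-70632308 and chr18:70640814-70641006 stood at 39.4% and 27.6% of the KO list, with the nearest WT peaks 1.34 and 3.58 kb off. The other KO-only peaks beyond the gene each lay near a WT-only peak, with gaps of 99, 28 and 294 bp. The surplus of 3 was 2 in the first 50% of each list and 1 within the gene body. It was also 2 when peaks within 500 bp counted as shared. Mbd3, the NuRD subunit that excludes Mbd2 from the same complex, had only shared peaks, 2 in each list, with its promoter peak at 0.915% of the WT list and 0.467% of the KO list. The deacetylase genes differed in that Hdac1 had 1 shared peak at its end and Hdac2 had 1 shared peak and 2 WT-only peaks, 38.3 and 12.4 kb from the gene, so that no difference remained at Hdac2 within 10 kb. The Hdac2 promoter peak, whose sequence is printed above, stood at 0.863% of the WT list and 3.06% of the KO list.

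Among the other NuRD genes, Mta3 had 3 KO-only peaks, 2 WT-only ones and 3 shared, a direction that turned in the gene body alone (-1). Gatad2a, which links the deacetylase and remodelling modules, had 7 shared peaks and 1 of each other kind. Its promoter peak stood at 1.93% of the WT list and 0.893% of the KO list. The remodelling ATPase genes Chd3 and Chd4 had 1 WT-only and 1 KO-only peak in turn, at 91.3% and 95% of their lists. Mta2 and the histone-binding gene Rbbp4 had 1 shared promoter peak each and no other, and Mta1, Gatad2b and Rbbp7 each had 1 WT-only peak.

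**Figure D3:**
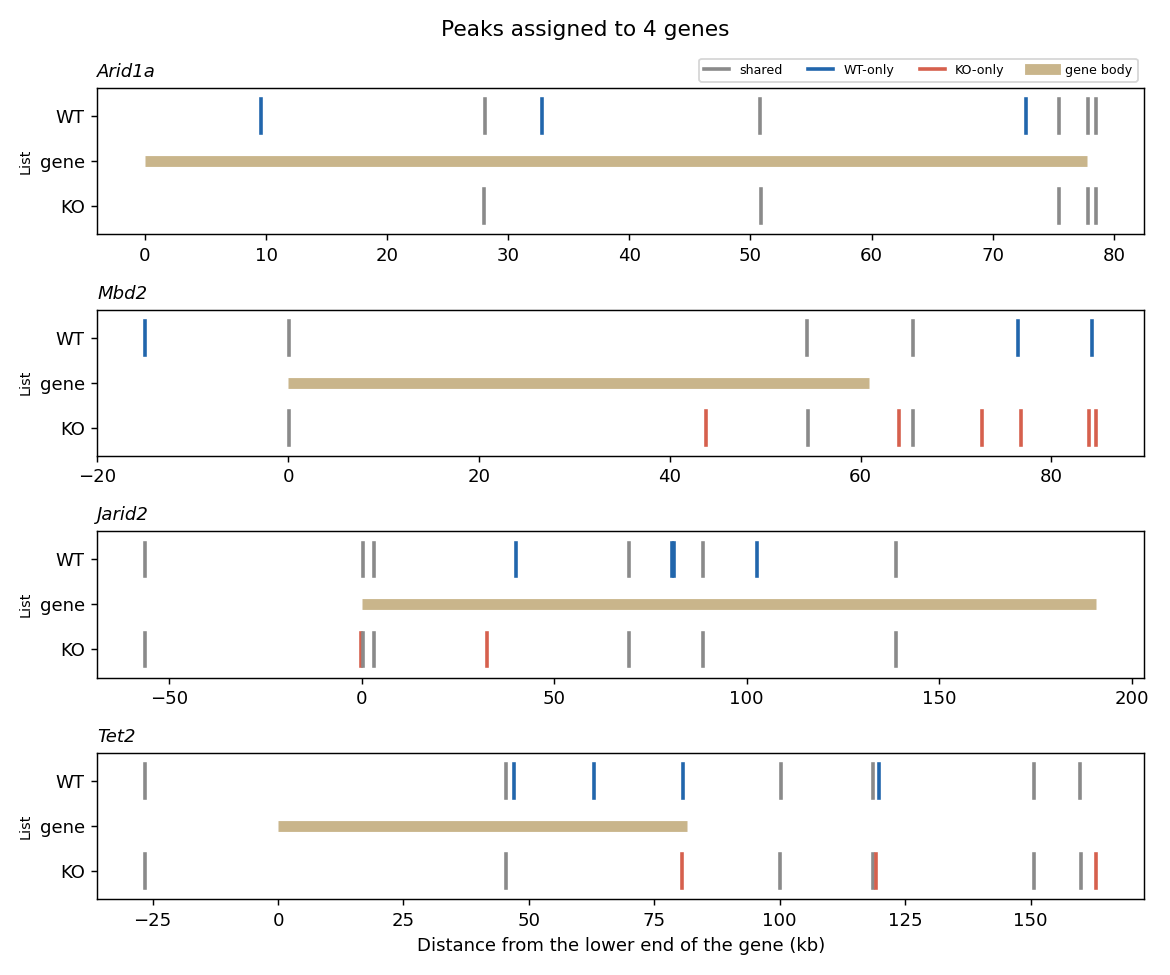
Peaks assigned to Arid1a, Mbd2, Jarid2 and Tet2 as ticks at their distance from the lower gene end in kb, with the WT list above and the KO list below the gene body. The 3 WT-only ticks of Arid1a lie inside the gene, and 5 of the 6 KO-only ticks of Mbd2 lie beyond its upper end.

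The Polycomb genes had 9 WT-only, 8 KO-only and 19 shared WT peaks over 8 members. At Jarid2 6 peaks were shared, 4 were WT-only and 2 KO-only, and the WT-only ones lay 39699 to 102244 bp after the nearest listed start, at 61.9% to 91.4% of the WT list. Of these 6 genotype-specific peaks, the KO-only promoter peak alone stood within the first 50% of its list, which turns the difference to 1. The methyltransferase genes Ezh1 and Ezh2 each had 2 KO-only peaks, with 0 WT-only peaks at Ezh1 and 1 at Ezh2. The KO-only peaks of Ezh1 lay 31676 and 30218 bp after the start (chr11:101194691-101194883 and chr11:101196149-101196341). They stood at 71.8% and 57.2% of the KO list, so neither was in the first 50% of it. The nearest WT peak was the same for both, 20.7 and 22.2 kb off. At Eed 5 peaks were shared, 3 were WT-only and 2 KO-only, most of them before its start and up to 74.1 kb from it. Within 10 kb of Eed or in its body, the difference was 1 KO-only peak in place of a WT surplus of 1. Suz12, the scaffold of PRC2, and Ring1, an E3 ligase of PRC1, had 1 shared peak each, and Bmi1, a partner of those ligases, had 2. Rnf2, the other ligase, had 1 shared peak and 1 WT-only peak at 90.5% of the list. The shared pair at Ring1 overlapped by 37 bp, where the median over shared peaks of the members was 175 bp, the same as over all genes. Some shared pairs overlapped by less, with 10 bp at Eed, 11 bp at Arid1b, 26 bp at Smarce1 and 29 bp at Tet2.

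By median, the 4 member genes of DNA methylation had more peaks per gene than the other groups of members. Their median was 7.5 in the WT list and 6.5 in the KO list, against 2 and 2 over all genes with a peak. These genes were 52.7 to 113 kb long, and longer members had more peaks. The part of gene length in this difference was not tested. The 6 other genes of DNA methylation in the pathway lists had medians of 1.5 and 1.5. At the 4 members there were 8 WT-only, 5 KO-only and 19 shared WT peaks (KO-only part 38.5%, 13.9 to 68.4%). At Tet2 6 peaks were shared, 4 were WT-only and 3 KO-only. Apart from the promoter pair, its WT-only peaks at chr3:133510614-133510832 and chr3:133526547-133526765 lay in the gene body, and its remaining KO-only peaks lay 37.8 and 81.7 kb beyond the gene. Tet3 had 5 shared peaks and 1 WT-only peak at 90.9% of the list. The de novo methyltransferase gene Dnmt3a had 6 shared peaks, 3 WT-only ones and 2 KO-only ones. Of these, a WT-only peak lay 585 bp after a listed start and a KO-only peak 352 bp after the most downstream listed start. Dnmt1, the maintenance methyltransferase, had 2 shared peaks and no other.

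Genotype-specific peaks of the members lay late in the lists. Row order was read as running from stronger to weaker peaks, which is an inference, since the labels do not state it and the score is constant. The median place was 34.1% for shared and 72.8% for WT-only peaks in the WT list, and 32.3% for shared and 59.1% for KO-only peaks in the KO list. Over all genes the medians were 37.5%, 76.1%, 41.3% and 71.3%. In the first 50% of their list lay 5 of 39 WT-only peaks (12.8%, 4.30 to 27.4%), at Tet2, Mbd2, Mta3 and Arid1a, where 18.5% of all WT-only peaks did. They were 5 of the members' 79 WT peaks there (6.33%, against 10.3% over all genes). Of the KO-only peaks 11 of 36 did (30.6%, 16.3 to 48.1%), at Eed, Tet2, Jarid2, Smarca2, Mbd2, Mta3, Arid1b and Gatad2a, against 26.8% over all genes, and they were 11 of 80 KO peaks there (13.8%, against 13% over all genes). Longer members had more peaks (Spearman correlation 0.446 for WT and 0.486 for KO across 40 genes, a description), and WT and KO numbers ran together (0.839), as the lists share most peaks.

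**Figure D4:**
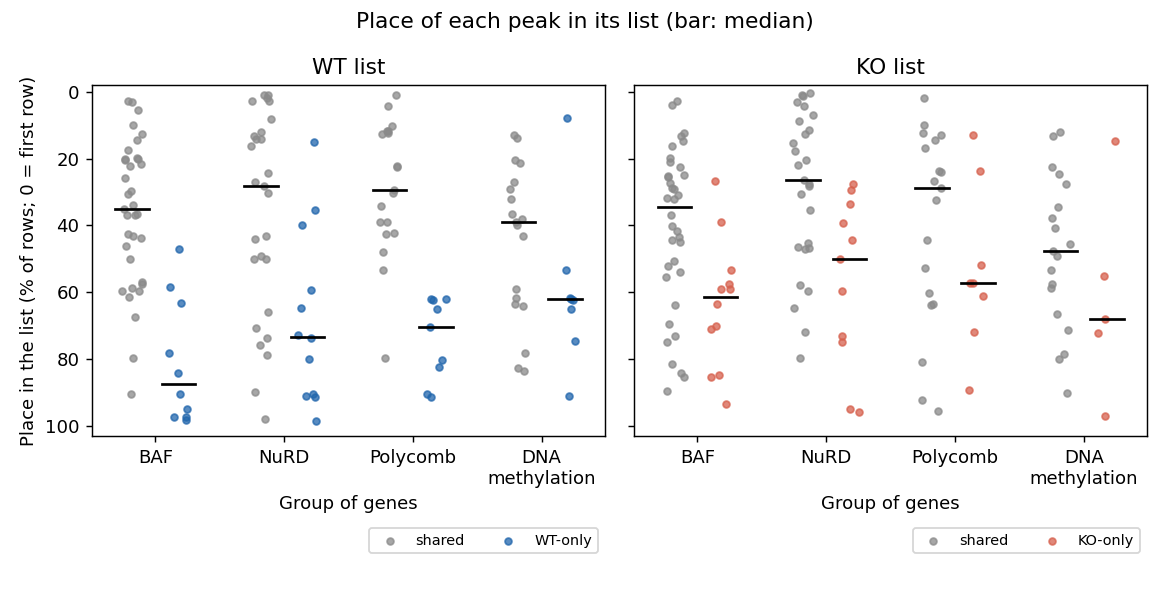
Place of each member peak in its list (0 is the first row, percent of rows on an inverted axis) by group, for shared and genotype-specific peaks, with the median as a bar. By median, genotype-specific peaks lie lower than shared ones in all 4 groups of both lists, with the Tet2 promoter peaks at 8.01% and 14.8% among the exceptions.

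Other genes of the same pathways, 45 in number, had 22 WT-only and 35 KO-only peaks, with 93 of 115 WT peaks shared (80.9%, 72.5 to 87.6%). More KO-only peaks lay at 12 of them and more WT-only peaks at 7, where 20.2% and 26.7% of all genes with a peak had such a surplus. A surplus of at least 2 KO-only peaks was found at 5 (Ss18 and Bcl7c of BAF, and Aebp2, Pcgf5 and Phc2 of Polycomb). One of at least 2 WT-only peaks was found at 0. Over all genes with a peak, 5.2% had the former and 7.92% the latter. The KO-only part was 61.4% (47.6 to 74.0%), beside 45.4% over all genes, and no test across samples was possible. Aebp2, a PRC2 cofactor, had 5 KO-only peaks and 2 WT-only ones, while Pcgf5, a PRC1 subunit, had 3 and 0.

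A set of 10 short motifs were searched on both strands of the windows as a description. They were CCGGAAG (ETS), GGGGCGGGG (SP and KLF factors), TGACGTCA (CRE), AAGATGGC (YY1), CCAAT (NF-Y), TGTGGT (RUNX), CACGTG (E-box), TGANTCA (AP-1) and TGACCA (the core bound by BCL11A, the paralog of Bcl11b), beside the palindromic NRF1 motif, and none contains another. The SP and KLF letters were in 11 of 43 member windows (25.6%), against 15.4% of all windows and 23.7% of those with a peak in both lists. The ETS letters were in 14% of member windows, 11.6% of all and 23.8% of those with such peaks. For the other motifs the shares are given in the same order, for member windows, all windows and windows with a peak in both lists. NF-Y letters were in 37.2%, 38.2% and 42.4%, RUNX letters in 16.3%, 15.0% and 12.0%, and E-box letters in 9.30%, 7.84% and 11.3%. AP-1 letters were in 6.98%, 6.99% and 3.94%, NRF1 letters in 4.65%, 1.33% and 2.8%, and YY1 letters in 2.33%, 3.05% and 5.76%. The BCL11A core was in 1 member window, that of Smarcd1 (2.33%, 12.5% and 10.6%), and the CRE letters in 0 (2.23% of all windows and 4.09% of those with peaks). Among the sequences printed, Jarid2 held SP/KLF, RUNX and NF-Y letters before the KO-only peak, Brd9 ETS and SP/KLF letters, Hdac2 the RUNX letters within its shared peak, and Tet2 and Eed none of the 10.

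The WT list held 38258 and the KO list 36182 peaks. Of 8 Treg and T cell markers, 6 had a gene-end peak in both lists, Cd4 had a shared peak whose midpoint fell within 1 kb of the gene end in the KO list alone, and Foxp3 had 1 shared peak inside the gene. The defining B cell genes Cd79a and Ms4a1, the myeloid genes Csf1r and Adgre1, and Cd8a and Ncr1 had no peak in either list. Other markers had gene-end peaks: Ebf1 of the B cell list, Cebpa and Cd14 of the myeloid list and Cd8b1, Eomes, Gzmb and Prf1 of the cytotoxic list in both lists, and the B cell gene Cd79b in the KO list alone. The marker lists summed to 15 WT and 19 KO peaks for 7 CD8 and cytotoxic genes, 7 and 9 for 5 B cell genes, and 4 and 5 for 6 myeloid genes. A surplus of at least 2 KO-only peaks was found at Ikzf2, Eomes, Prf1, Pax5 and Itgam. Of the markers with a peak, these were 1 of 8 for Treg and T cells and 2 of 5 for CD8 and cytotoxic cells. For B cells it was 1 of 3 and for myeloid cells 1 of 4. A surplus of at least 2 WT-only peaks was found at 0 genes of the marker lists. Over all genes with a peak, 5.2% had the former and 7.92% the latter. The part of other cells in the peaks at the chromatin regulators was not tested. In pooled cells, fewer cells with an open site and less opening per cell cannot be told apart.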

How the data were processed

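ATAC-seq peaks of Treg cells were analysed, 3 WT and 3 KO samples, with 1 peak list per group per the labels. HOMER 4.10.1, HISAT2 2.1.0, cutadapt 1.12, Trim Galore 0.4.2, SAMtools 1.3, deepTools and FastQC are named for build mm10, per the submitters' processing notes. What each did, how replicates were pooled, whether reads were shifted for the transposase and the threshold of peak calling were not stated there. The score that the authors deposited is 1 in every row, so depth and peak height are unknown. Peak comparisons used pandas 2.3.3, numpy 2.4.6 and scipy 1.17.1 under Python 3.11.15, and matplotlib 3.10.9 drew the plots. Overlap, gap and gene assignment were tested on simulated data, 800 peaks against bedtools 2.31.1, with 0 differences. Where gene bodies overlapped, the gene with the nearer end was taken. A peak may act on another gene than the one it was assigned to. Genes and promoter windows came from RefSeq (GRCm38.p6).

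All 40 members were accounted for. A gene of the marker lists is not reported here and was left out of its list's sum. Named in full were members with a difference of at least 2 peaks, with at least 5 genotype-specific peaks, with a gene-end peak in 1 list alone, with no peak, or among the 2 with most peaks in their group. The members and lists were chosen with earlier results of these data known. Alternatives were other overlap rules, list lengths, gene assignments and gene-end windows.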

Additional observations from a re-analysis of the deposited data

How the results depend on the processing

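The 5 summary values over the 40 genes were recomputed under other settings, and 12 members under 7 settings each. Among peaks in the first 50% of rows, the KO-only part of genotype-specific peaks was 68.8% in place of 48.0% (over all genes 54.6% in place of 45.4%), the shared part of WT peaks 93.7% and that of KO peaks 86.2%. KO-only minus WT-only peaks, -3 over the members, was -5 when 50% of a peak's own width had to be overlapped. That rule asks for more bases in the WT list, where the usual width was 219 bp against 193 bp. The difference was -7 when peaks within 500 bp counted as shared. It turned to 6 in the first 50% of each list, to 3 when the WT list was cut to as many rows as the KO list, and to 2 within 10 kb of the genes, and the cause was not tested. Gene ends with peaks in both lists were counted at 35 to 39 members over the 4 settings run for them. Of 84 values for single members, 57 stayed within 1.5 times of the main value, 22 moved and 5 turned sign. The direction turned to 1 at Eed in the first 50% of each list, within 10 kb and in the gene body, to 1 at Jarid2 in the first 50%, and to -1 at Mta3 in the gene body, and the cause was not tested. No paired analysis was possible because each group has 1 pooled peak list, and for the same reason no replicate could be left out. The lists give no depth, so a peak missing from a list does not show a closed site.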
